A study of Mus musculus with 24 samples.

Results

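The mammalian circadian clock is a transcriptional loop that runs in nearly every cell, skeletal muscle fibres included. Here its 10 genes *Bmal1* (annotated as *Arntl*), *Clock*, *Per1*, *Per2*, *Per3*, *Cry1*, *Cry2*, *Dbp*, *Tef* and *Nr1d1* are described in mouse hind limb muscle that bore weight or had been unloaded. The members were chosen by gene name, and every probe set annotated to one of them was taken. This gave 17 of the 22626 probe sets that are not controls and 10 of 12393 annotated genes. All 10 genes were tested, through 16 probe sets, among 11098 genes tested. One of the 3 *Per3* probe sets was too dim to be tested. Where a gene had several, the one with the highest mean log2 intensity over the 24 arrays stands for it here and the others are given beside it.

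Gastrocnemius and plantaris muscles came from male mice, 6 weeks old, after 6 days of cage life with normal weight bearing (WB) or of hind limb unloading (HU), in which the hindquarters are lifted so that the hind limbs carry no load. Wild type (WT) mice were B6129PF2/J, *Nfkb1*-/- mice were B6;129P2-Nfkb1tm1Bal/J and lack p105 and the p50 subunit of NF-κB, and *Bcl3*-/- mice were FVB;129P2-Bcl3tm1Ver/J and lack Bcl-3, a nuclear partner of p50. Both deletions affect the whole animal, and the strain backgrounds differ, so genotype and background cannot be told apart. Each of the 6 groups had 4 arrays, 1 a mouse, 24 in all. The hour of the day at which muscles were taken is not given in the sources used here. The deletions were not checked on the arrays, where a comparison of *Bcl3* between genotypes would cross the scales described next.

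The deposited intensities fall on 2 scales. Array medians were 11.6 to 11.9 on the 16 WT and *Nfkb1*-/- arrays and 81.1 to 86.8 on the 8 *Bcl3*-/- arrays. Levels in *Bcl3*-/- muscle are therefore compared only among themselves, and between genotypes only as differences between changes. The arrays farthest from their group means over all probe sets tested were WB *Bcl3*-/- replicates 2 and 4, at a root mean square of 0.27 and 0.22 on the log2 scale, and results that rest on them are given without them. Replicate 4 lay little above the next array, unloaded WT replicate 1 at 0.21. Leaving out both removes 2 of the 4 WB *Bcl3*-/- arrays, and the part of fewer arrays in calls lost this way was not tested. All 6 muscle fibre markers, such as *Ckm* and *Acta1*, were at or above the 99.6th percentile of every array. In whole muscle, fewer cells of a type and less RNA per cell cannot be told apart.

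In this loop BMAL1 and CLOCK bind E-boxes as a pair and activate the Per and Cry genes, whose proteins enter the nucleus and repress their own activators. The same pair drives *Nr1d1*, whose product REV-ERBα represses *Bmal1*, and *Dbp*, which with *Tef* encodes activators that bind D-boxes. As a result *Bmal1* messenger RNA peaks nearly opposite to *Dbp* and *Nr1d1* messenger RNA over the day, and in skeletal muscle the loop times genes of fuel use and of the muscle programme.

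Short motifs were looked for in the 250 bases before each annotated start, on both strands, in RefSeq promoters of GRCm38.p6. They were motifs through which clock proteins act on each other, the half-site of the cyclic AMP response element and a κB motif. The table matched 9 of the 10 genes. The E-box CACGTG was in the promoters of 3 of them, *Cry1*, *Per1* and *Tef*, and in 6.02% of all 32851 promoters. The D-box TTANGTAA was in 1, *Per3*, and in 2.06% of all. The half-site TGACGT of the cyclic AMP response element was in 1, *Per1*, and in 6.47% of all. The core TAGGTCA, shared by ROR and REV-ERB, was in none of the 9 and in 2.23% of all. Of the κB motif, to which NF-κB binds, only a narrow form was looked for. This form was in none of the 9 and in 0.98% of all. Looser forms of the κB motif were not searched for, so whether these promoters hold other κB sites was not tested. A match describes the letters of a window, and no match says only that these letters are not in it. A gene may have several windows and is counted with a match in any of them. The shares are of single windows, so counts and shares are not alike. The sequences below show matches to these motifs in genes whose values follow, 5′ to 3′ on the strand of the gene, with the motif in capitals. *Per3* holds 2 D-boxes, 205 and 158 bases before its start (the part of its window outside the annotated gene is shown), *Cry1* an E-box 60 bases before and *Tef* an E-box 127 bases before. Another *Tef* window, not shown, holds an E-box 138 bases before its start. For *Per1*, 30 bases around the E-box at 166 and around the half-site at 132 bases before the start of 2 different transcripts are shown.

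*Per3*, chr4:151044708-151044915, minus strand: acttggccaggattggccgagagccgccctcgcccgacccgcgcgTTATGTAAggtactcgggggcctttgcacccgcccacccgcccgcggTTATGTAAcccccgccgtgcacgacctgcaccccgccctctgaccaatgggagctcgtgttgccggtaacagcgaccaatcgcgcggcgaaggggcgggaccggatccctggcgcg
*Cry1*, chr10:85185055-85185304, minus strand: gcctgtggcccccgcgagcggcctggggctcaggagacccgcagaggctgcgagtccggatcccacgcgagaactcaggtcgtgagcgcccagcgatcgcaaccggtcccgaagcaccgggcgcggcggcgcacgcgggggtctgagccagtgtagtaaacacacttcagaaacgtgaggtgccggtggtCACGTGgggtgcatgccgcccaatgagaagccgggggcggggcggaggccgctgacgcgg
*Tef*, chr15:81802423-81802672, plus strand: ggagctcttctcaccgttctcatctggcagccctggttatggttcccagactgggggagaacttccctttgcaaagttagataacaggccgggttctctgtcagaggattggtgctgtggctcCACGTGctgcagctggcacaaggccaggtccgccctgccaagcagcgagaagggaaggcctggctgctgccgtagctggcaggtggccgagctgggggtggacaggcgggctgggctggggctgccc
*Per1*, E-box, chr11:69098771-69098800, plus strand: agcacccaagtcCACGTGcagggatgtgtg
*Per1*, half-site, chr11:69100008-69100037, plus strand: gagctcagcggcTGACGTcggtttccctgg

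Over the 6 days of unloading few clock genes moved beyond the spread between arrays. *Nr1d1*, the REV-ERBα gene, rose in *Nfkb1*-/- and in *Bcl3*-/- muscle, *Tef* rose in *Nfkb1*-/- muscle and *Per3* rose in *Bcl3*-/- muscle. In WT muscle no member passed the threshold, though *Nr1d1* was higher on average there by 0.80 (adjusted p = 0.0932 by limma), beside 0.86 in *Nfkb1*-/- muscle. For no member did the difference between the changes of WT and a knockout pass the test. The spread within groups was wide for most of these genes. *Dbp* differed by up to 10.7-fold between mice of the same group. Changes are HU minus WB on the log2 scale from limma, with the standard error (SE) and the p-value adjusted by Benjamini-Hochberg over all 19294 probe sets tested, and a gene is said to rise or fall where that p was under 0.05. The SE of a probe set rests on 1 spread shared by all 6 groups. It is therefore the same for the change in each genotype and does not measure the spread within that genotype alone.

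**Figure D1:**
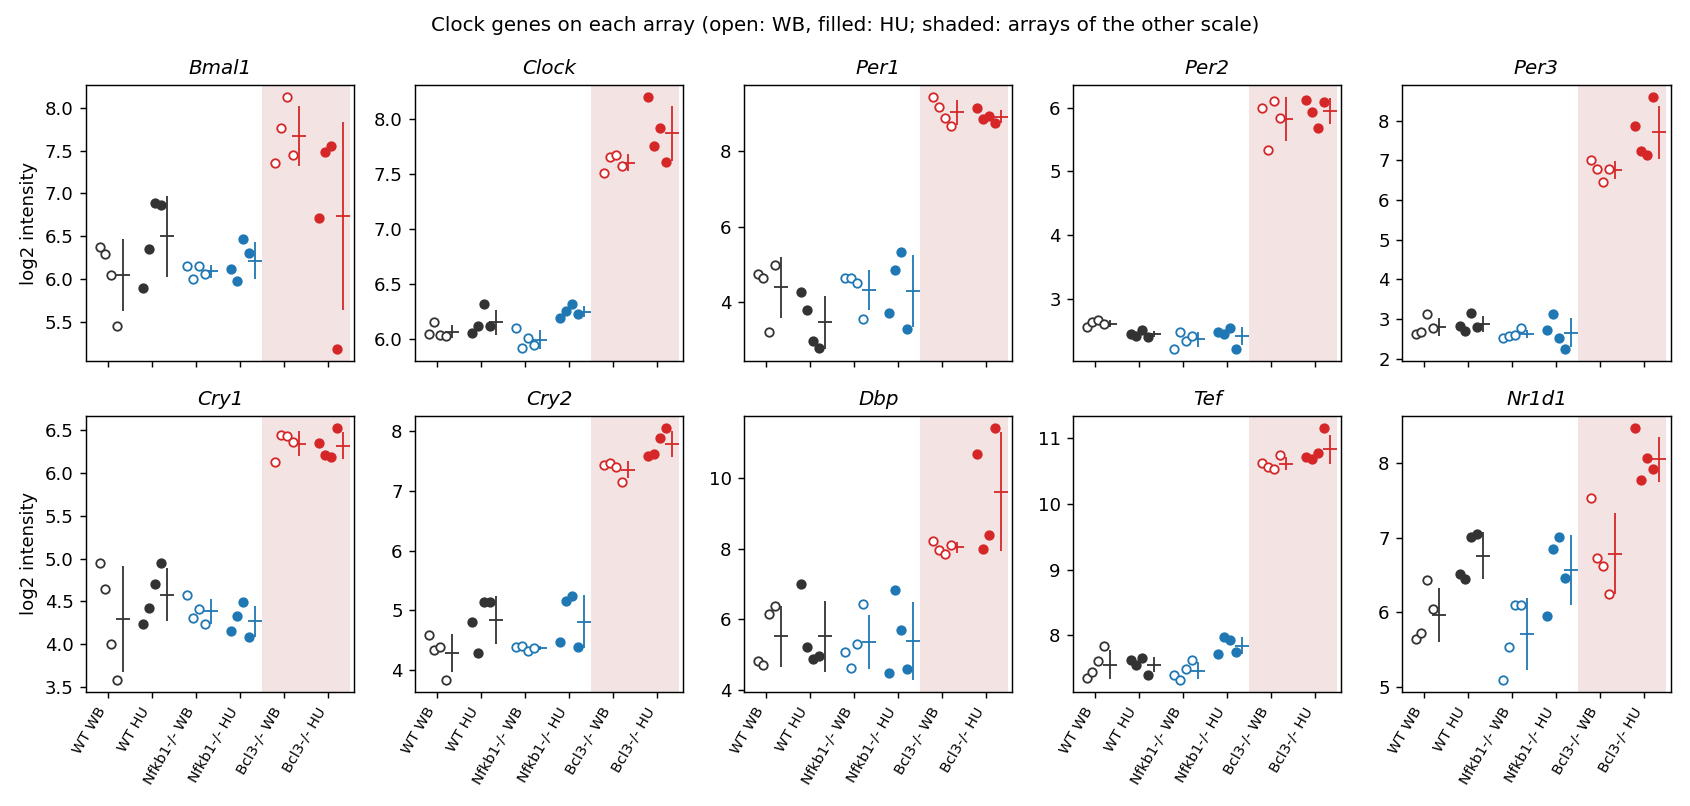
Log2 intensity of the 10 clock genes on each of the 24 arrays, 1 panel a gene and 1 column a group of 4 arrays, open circles WB and filled circles HU, with the group mean as a dash and 1 SD as a bar. The shaded *Bcl3*-/- columns are on another scale and cannot be set against the others. *Dbp* and *Bmal1* spread widely within unloaded *Bcl3*-/- muscle, and the *Nr1d1* mean lies higher in HU than in WB in each genotype.

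In WT muscle 0 of the 10 genes were called, where 3.97% of all probe sets were (2.31% higher and 1.66% lower). Only 9722 of the 19294 probe sets tested were above 20 on at least 4 WT or *Nfkb1*-/- arrays, and the rest passed the filter only with the brighter *Bcl3*-/- arrays. Over the 9722 the share called was 6.62% in WT, 18.4% in *Nfkb1*-/- and 16.2% in *Bcl3*-/- muscle. At an unadjusted p under 0.05 there were 3, *Per1*, *Cry2* and *Nr1d1*, where 18.0% of all probe sets passed. In *Nfkb1*-/- muscle 2 of the 10, *Tef* and *Nr1d1*, were called, both higher, where 11.4% of all probe sets were called, 4.79% higher and 6.59% lower. At an unadjusted p under 0.05 *Clock* and *Cry2* passed as well (24.3% of all). In *Bcl3*-/- muscle 2 of the 10, *Per3* and *Nr1d1*, were called, both higher, where 10.4% of all were called, 7.59% higher and 2.81% lower. Of those calls over all probe sets 73.0% were higher, and 58.8% after quantile normalization again over all arrays. At an unadjusted p under 0.05 *Bmal1*, *Clock*, *Cry2* and *Dbp* passed as well (26.1% of all). The median change of the 10 genes was 0.08 in WT, 0.09 in *Nfkb1*-/- and 0.24 in *Bcl3*-/- muscle, beside -0.01, -0.00 and 0.01 over all genes tested. The arrays of the WB and HU groups did not overlap for 2 genes in WT (*Per2* and *Nr1d1*; 10.7% of all probe sets), 2 in *Nfkb1*-/- (*Clock* and *Tef*; 18.6%) and 3 in *Bcl3*-/- muscle (*Per3*, *Cry2* and *Nr1d1*; 15.4%). *Per2* was below 20 on all WT arrays.

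*Bmal1* encodes the partner without which the loop stops. *Bmal1* intensities in WT muscle were 83.2, 78.4, 66.2 and 43.7 in replicates 1 to 4 of WB and 59.5, 81.7, 118 and 117 in those of HU. *Bmal1* read 71.0, 64.2, 71.3 and 66.4 in WB and 69.3, 62.9, 88.1 and 79.1 in HU *Nfkb1*-/- muscle. *Bmal1* read 163, 217, 278 and 174 in WB and 105, 179, 188 and 36.3 in HU *Bcl3*-/- muscle. The groups overlapped in each genotype. The 4 WB *Nfkb1*-/- mice lay within 1.11-fold of each other, and unloaded *Bcl3*-/- replicate 4 was 5.17-fold below the highest of its group. The change was 0.46 (SE 0.34, adjusted p = 0.536) in WT, 0.12 (SE 0.34, adjusted p = 0.891) in *Nfkb1*-/- and -0.94 (SE 0.34, adjusted p = 0.0776) in *Bcl3*-/- muscle. None of these passed. The *Bcl3*-/- value passed without HU replicate 2 (-1.19, adjusted p = 0.038) or HU replicate 3 (-1.21, adjusted p = 0.037) and was -0.42 (adjusted p = 0.313) without HU replicate 4. The WT change minus the *Bcl3*-/- change was 1.39 (SE 0.48, adjusted p = 0.176), with the lowest adjusted p of any member for a difference between responses.

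*Clock*, the other activator, held steadier. *Clock* intensities in WT muscle were 66.1, 71.2, 65.4 and 65.3 in WB and 66.5, 69.3, 79.6 and 69.4 in HU. *Clock* read 68.7, 60.3, 64.6 and 61.6 in WB and 73.2, 76.4, 79.6 and 75.1 in HU *Nfkb1*-/- muscle. *Clock* read 183, 202, 204 and 190.3 in WB and 293, 217, 242 and 196 in HU *Bcl3*-/- muscle. In *Nfkb1*-/- mice every HU array lay above every WB array, and in the other genotypes the groups overlapped. The change was 0.08 (SE 0.09, adjusted p = 0.711) in WT, 0.26 (SE 0.09, adjusted p = 0.0844) in *Nfkb1*-/- and 0.27 (SE 0.09, adjusted p = 0.0719) in *Bcl3*-/- muscle, none of which passed. The *Nfkb1*-/- value passed without *Bcl3*-/- HU replicate 1 (adjusted p = 0.041), which enters only through the shared spread, and the *Bcl3*-/- value passed at 0.35 (adjusted p = 0.0216) without HU replicate 4. The second *Clock* probe set changed by 0.37, 0.16 and 0.02 in the same order and passed in none.

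Of the repressors, *Per1* responds to light and hormone signals as well as to the loop. *Per1* intensities in WT muscle were 26.8, 24.9, 9.17 and 31.5 in WB and 19.3, 13.9, 7.81 and 6.91 in HU. *Per1* read 25.0, 24.6, 22.7 and 11.6 in WB and 13.0, 28.9, 39.9 and 9.72 in HU *Nfkb1*-/- muscle. *Per1* read 688, 574, 476 and 405 in WB and 569, 460.3, 485 and 428 in HU *Bcl3*-/- muscle. WT HU arrays lay below 3 of the 4 WB arrays, and the groups overlapped in each genotype. The change was -0.93 (SE 0.40, adjusted p = 0.204) in WT, -0.04 (SE 0.40, adjusted p = 0.976) in *Nfkb1*-/- and -0.12 (SE 0.40, adjusted p = 0.885) in *Bcl3*-/- muscle. The WT value passed where arrays were weighted by their noise (-1.18, adjusted p = 0.0309, where the other settings with all arrays gave up to 0.477), and without WB replicate 3 it was -1.33 (adjusted p = 0.0577).

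*Per2* and *Per3* were above an intensity of 20 on the 8 *Bcl3*-/- arrays and on no others, so they passed the filter through those arrays alone. *Per2* intensities ran from 4.65 to 6.34 over the 16 WT and *Nfkb1*-/- arrays, below the limit used by the filter. In WT muscle they were 5.86, 6.21, 6.34 and 6.07 in WB and 5.46, 5.36, 5.69 and 5.27 in HU, which did not overlap. In *Bcl3*-/- muscle *Per2* read 63.7, 40.3, 68.9 and 56.8 in WB and 69.5, 60.6, 51.0 and 67.8 in HU, which overlapped. The change was -0.17 (SE 0.12, adjusted p = 0.53) in WT, 0.06 (SE 0.12, adjusted p = 0.857) in *Nfkb1*-/- and 0.13 (SE 0.12, adjusted p = 0.532) in *Bcl3*-/- muscle. The second *Per2* probe set changed by 0.01, 0.13 and -0.10 in the same order and passed in none. On the *Bcl3*-/- arrays alone it had the higher mean intensity, 114 in WB and 118 in HU muscle, where the one given above had 57.4 and 62.2.

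*Per3*, a repressor that mice can lack with little loss of rhythm, rose in *Bcl3*-/- muscle. *Per3* intensities in *Bcl3*-/- muscle were 130.1, 109.7, 88.1 and 109 in WB and 233, 152, 141 and 385 in HU. Every HU array lay above every WB array, and HU replicates 1 and 4 stood highest, the same mice in which *Dbp* was highest. The change was 0.95 (SE 0.22, adjusted p = 0.00847), 1.93-fold. It stayed past the threshold without any single array, at 0.66 to 1.14, but not without WB replicates 2 and 4 together (0.97, adjusted p = 0.0549) or in a fit of the *Bcl3*-/- arrays alone (adjusted p = 0.0713), and over these and the other settings its adjusted p ran from 0.00211 to 0.414. On WT and *Nfkb1*-/- arrays *Per3* ran from 4.76 to 8.92, and the change was 0.07 (SE 0.22, adjusted p = 0.92) and 0.04 (SE 0.22, adjusted p = 0.95). The WT change minus the *Bcl3*-/- change was -0.88 (SE 0.31, adjusted p = 0.189), so a difference between the genotypes was not shown. The second *Per3* probe set tested changed by 0.25 (adjusted p = 0.13) in *Bcl3*-/- muscle.

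*Cry1* and *Cry2* encode the cryptochromes, the strongest repressors of the loop. *Cry1* intensities in WT muscle were 30.9, 24.9, 16.0 and 12.0 in WB and 18.9, 21.5, 26.0 and 30.8 in HU. *Cry1* read 23.9, 19.8, 21.3 and 18.8 in WB and 17.8, 20.1, 22.6 and 17.0 in HU *Nfkb1*-/- muscle. *Cry1* read 69.9, 86.8, 86.0 and 82.4 in WB and 81.7, 74.1, 72.8 and 91.9 in HU *Bcl3*-/- muscle. The groups overlapped in each genotype, and the change was 0.28 (SE 0.20, adjusted p = 0.504) in WT, -0.11 (SE 0.20, adjusted p = 0.807) in *Nfkb1*-/- and -0.02 (SE 0.20, adjusted p = 0.959) in *Bcl3*-/- muscle.

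*Cry2* was higher on average with unloading in each genotype and passed in none. *Cry2* intensities in WT muscle were 24.0, 20.1, 20.8 and 14.3 in WB and 28.0, 19.4, 35.3 and 35.0 in HU. *Cry2* read 20.9, 21.1, 19.9 and 20.6 in WB and 22.1, 35.5, 37.9 and 20.9 in HU *Nfkb1*-/- muscle. *Cry2* read 172, 176, 169 and 141 in WB and 192, 195, 236 and 265 in HU *Bcl3*-/- muscle. Unloaded *Nfkb1*-/- mice fell into a pair near the WB level and a pair well above it, and in *Bcl3*-/- mice every HU array lay above every WB array. The change was 0.56 (SE 0.19, adjusted p = 0.106) in WT, 0.44 (SE 0.19, adjusted p = 0.145) in *Nfkb1*-/- and 0.42 (SE 0.19, adjusted p = 0.161) in *Bcl3*-/- muscle. The WT value passed without WT HU replicate 2 (0.74, adjusted p = 0.0189).

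*Nr1d1* was higher on average with unloading in each genotype. *Nr1d1* intensities in WT muscle were 49.9, 52.7, 86.5 and 66.1 in WB and 91.6, 87.6, 129 and 133 in HU. *Nr1d1* read 34.3, 46.2, 68.7 and 68.8 in WB and 61.6, 116, 129 and 88.1 in HU *Nfkb1*-/- muscle. *Nr1d1* read 186, 106, 98.8 and 76.0 in WB and 355, 219, 268 and 242 in HU *Bcl3*-/- muscle. In WT and *Bcl3*-/- mice every HU array lay above every WB array, in WT muscle narrowly (87.6 in HU replicate 2 and 86.5 in WB replicate 3), and in *Nfkb1*-/- mice HU replicate 1 lay within the WB range. The change was 0.80 (SE 0.27, adjusted p = 0.0932) in WT, 0.86 (SE 0.27, adjusted p = 0.0373) in *Nfkb1*-/- and 1.27 (SE 0.27, adjusted p = 0.00416) in *Bcl3*-/- muscle, or 1.74-fold, 1.81-fold and 2.41-fold. The WT change minus that of *Nfkb1*-/- was -0.06 (SE 0.38, adjusted p = 0.969) and minus that of *Bcl3*-/- was -0.47 (SE 0.38, adjusted p = 0.643), so the pass in the knockouts and the miss in WT muscle is no shown difference between them. The 95% interval of the first difference ran from -0.84 to 0.72 and that of the second from -1.25 to 0.31.

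The *Nr1d1* call in *Bcl3*-/- muscle held without any single array, at 1.09 to 1.52, and was lost without WB replicates 2 and 4 together (0.97, adjusted p = 0.0851), where over all settings that do not leave out 1 array it ran from 0.00182 to 0.136. The call in *Nfkb1*-/- muscle was lost without WB replicate 1 (0.66, adjusted p = 0.154) or 2 (0.80, adjusted p = 0.0984) and without HU replicate 2 (0.76, adjusted p = 0.112), 3 (0.71, adjusted p = 0.128) or 4 (0.90, adjusted p = 0.0518). The annotated span of *Nr1d1* overlaps that of *Thra*, the thyroid hormone receptor α gene, over 1075 bases (chr11:98767932-98769006 of GRCm38.p6), and whether probes lie there was not tested.

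**Figure D2:**
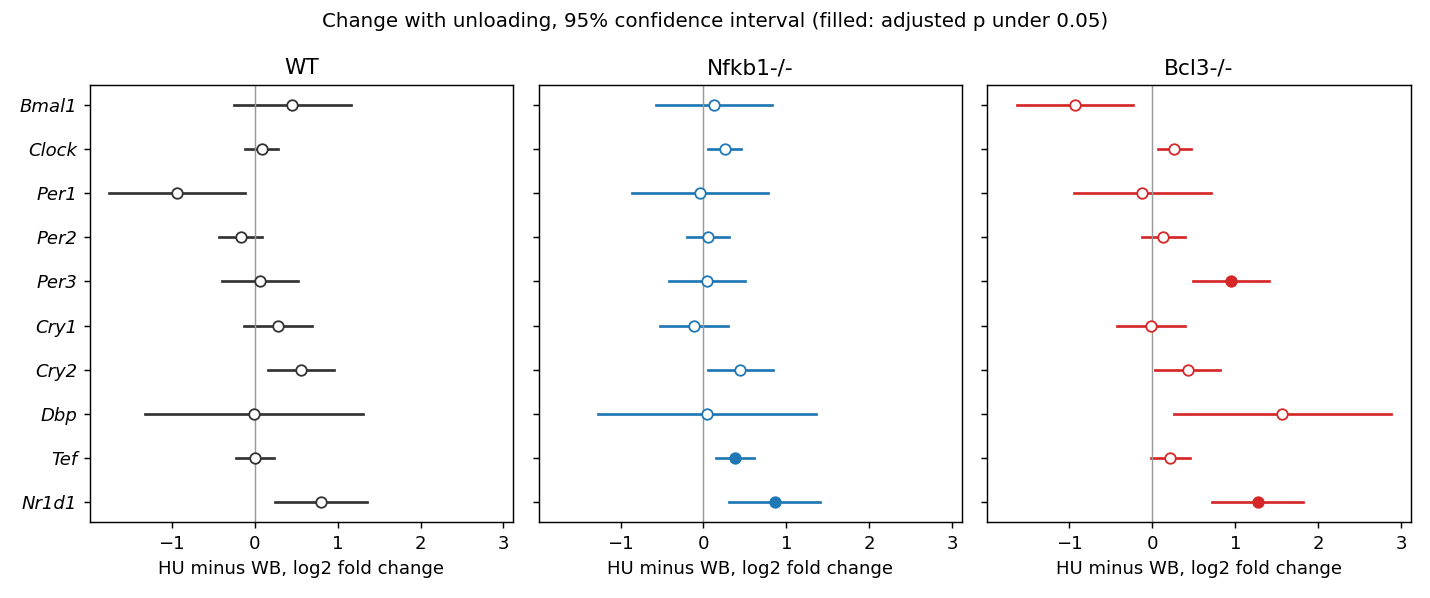
Change with unloading (HU minus WB, log2) of each clock gene in WT, *Nfkb1*-/- and *Bcl3*-/- muscle, with the 95% confidence interval from limma as a bar. Filled circles, 2 in *Nfkb1*-/- and 2 in *Bcl3*-/- muscle, mark an adjusted p under 0.05, and *Dbp* has the widest interval in each panel.

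*Tef* and *Dbp* encode 2 activators of one family, which bind D-boxes and carry the rhythm to output genes. *Tef* intensities in WT muscle were 163, 173, 194 and 229 in WB and 198, 187, 201 and 169 in HU. *Tef* read 168, 161, 180.4 and 198 in WB and 211, 252, 243 and 216 in HU *Nfkb1*-/- muscle. *Tef* read 1577, 1503, 1469.9 and 1714 in WB and 1684, 1639, 1741 and 2271 in HU *Bcl3*-/- muscle. Every HU array lay above every WB array in *Nfkb1*-/- mice, and in the other genotypes the groups overlapped. The change was 0.00 (SE 0.11, adjusted p = 0.998) in WT, 0.38 (SE 0.11, adjusted p = 0.0274) in *Nfkb1*-/- and 0.22 (SE 0.11, adjusted p = 0.22) in *Bcl3*-/- muscle, and the *Nfkb1*-/- rise was 1.30-fold. It was lost without *Nfkb1*-/- WB replicate 1 (0.36, adjusted p = 0.0769) or 2 (0.34, adjusted p = 0.0922) and without HU replicate 2 (0.34, adjusted p = 0.0912) or 3 (0.35, adjusted p = 0.0759). The WT change minus the *Nfkb1*-/- change was -0.38 (SE 0.16, adjusted p = 0.319). The 2 other *Tef* probe sets changed by 0.15 and 0.05 in *Nfkb1*-/- muscle and did not pass.

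*Dbp* had the widest spread of the members. *Dbp* intensities in WT muscle were 28.6, 26.5, 71.3 and 83.7 in WB and 128, 37.7, 29.6 and 31.2 in HU. *Dbp* read 33.9, 24.6, 39.6 and 86.3 in WB and 22.6, 114, 51.9 and 24.1 in HU *Nfkb1*-/- muscle. *Dbp* read 297, 251, 230.2 and 273 in WB and 1616, 251, 331 and 2684 in HU *Bcl3*-/- muscle. Single mice stood high in both WB and HU groups, and the groups overlapped in each genotype. The unloaded *Bcl3*-/- mice split into replicates 1 and 4 and replicates 2 and 3, while their 4 WB counterparts lay within 1.29-fold of each other. The change was -0.01 (SE 0.64, adjusted p = 0.998) in WT, 0.04 (SE 0.64, adjusted p = 0.984) in *Nfkb1*-/- and 1.57 (SE 0.64, adjusted p = 0.117) in *Bcl3*-/- muscle. The last was 2.11 and passed without HU replicate 2 (adjusted p = 0.0423) and was 0.97 without HU replicate 4 (adjusted p = 0.37). The second *Dbp* probe set changed by -0.00, -0.05 and 1.21 in the same order and passed in none.

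Between *Nfkb1*-/- and WT mice, whose arrays share a scale, no clock gene passed the test. In WB muscle 0 of the 10 were called (0.902% of all probe sets), and the member with the lowest adjusted p was *Per2*, at -0.25 (SE 0.12, adjusted p = 0.666), with no overlap of the groups (6.64% of all). *Per2* was below 20 on all of these arrays and passed the filter through the *Bcl3*-/- arrays alone, so nothing is read from this. In HU muscle 0 of the 10 were called (7.32% of all, 2.74% higher and 4.58% lower). The difference in *Tef* was 0.29 (SE 0.11, adjusted p = 0.121), with every *Nfkb1*-/- HU array above every WT HU array (12.1% of all did not overlap), and *Per1* was 0.83 (SE 0.40, adjusted p = 0.223). At an unadjusted p under 0.05 no member passed in WB muscle (7.85% of all) and 2, *Per1* and *Tef*, passed in HU muscle (21.8% of all). Of the differences between responses, 0 of the 10 were called for *Nfkb1*-/- (0.176% of all) and 0 for *Bcl3*-/- (1.07% of all). Unadjusted, 1 member, *Tef*, passed for *Nfkb1*-/- (12.3% of all) and 2, *Per3* and *Bmal1*, passed for *Bcl3*-/- (13.6% of all). Every comparison with WT shares the same WT arrays.

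The spread among arrays of a group was measured as the SD of log2 intensity pooled over the 6 groups. Its median over all probe sets tested was 0.16, its 90th percentile 0.26 and its 99th percentile 0.49. Of the 10 clock genes 7 lay above the 90th percentile and 3 above the 99th. *Dbp* had an SD of 1.03, *Per1* of 0.64 and *Bmal1* of 0.55, at the 99.97th, 99.6th and 99.3rd percentile. *Nr1d1* (0.42), *Per3* (0.35), *Cry1* (0.31) and *Cry2* (0.30) followed. *Per2* (0.18), *Tef* (0.16) and *Clock* (0.13) lay below the 90th percentile. For *Per2* this turned on the probe set, since the second one had an SD of 0.45, at the 98.7th percentile, with 0.16 on WT and *Nfkb1*-/- arrays and 0.75 on *Bcl3*-/- arrays. *Per1* and *Cry1* were dim on WT and *Nfkb1*-/- arrays, where their SDs were 0.76 and 0.36, against 0.26 and 0.15 on *Bcl3*-/- arrays, and the part of low signal in this was not tested. *Cry2* had 0.34 on WT and *Nfkb1*-/- arrays and 0.19 on *Bcl3*-/- arrays, and *Per3* had 0.24 and 0.50. Against all probe sets on the same arrays, *Per1*, *Cry1* and *Cry2* passed the 90th percentile only on WT and *Nfkb1*-/- arrays. *Per3* passed it only on *Bcl3*-/- arrays. *Dbp* was wide on both scales, at 0.94 and 1.19. The percentiles are over all 19294 probe sets tested, of which 9722 were above 20 on at least 4 WT or *Nfkb1*-/- arrays.

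**Figure D3:**
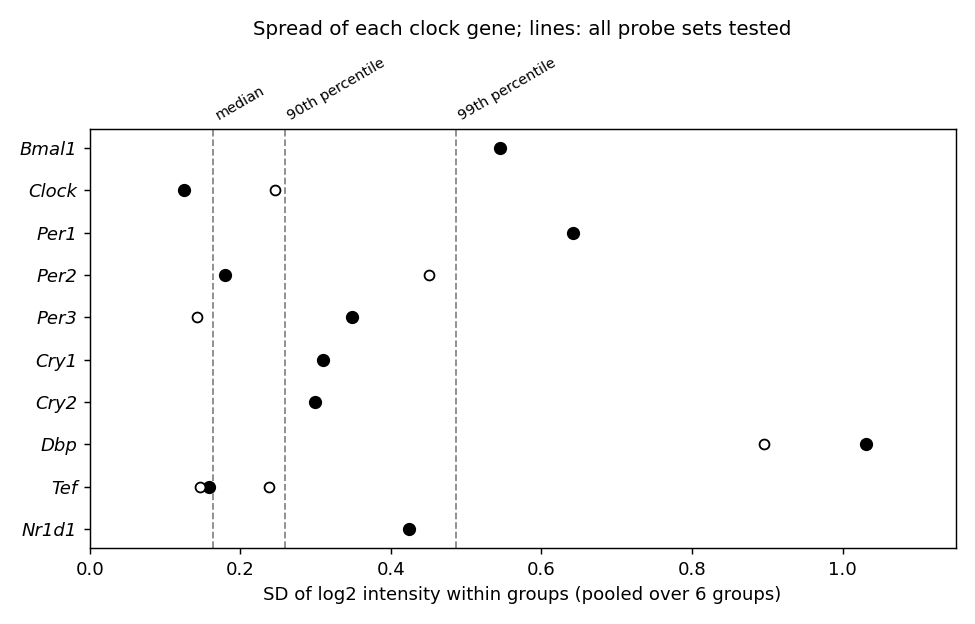
SD of log2 intensity within groups, pooled over the 6 groups of 4 arrays, for each clock gene. Filled circles are the probe set that stands for the gene and open circles the others, and dashed lines give the median, the 90th and the 99th percentile of all probe sets tested (0.16, 0.26 and 0.49). *Dbp*, *Per1* and *Bmal1* lie right of the 99th percentile.

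The spread was not the same in every group. Against the 90th percentile of its own group, 6 of the 10 clock genes were wider in WB WT, 6 in HU WT, 3 in WB *Nfkb1*-/-, 5 in HU *Nfkb1*-/-, 1 in WB *Bcl3*-/- and 5 in HU *Bcl3*-/- muscle. That percentile was highest in WB *Bcl3*-/- muscle, at 0.36, the group of the arrays farthest from their group mean, replicates 2 and 4, so the count there was taken against a higher limit. By the median SD of the 10 genes the narrowest group was WB *Nfkb1*-/- muscle, at 0.12, followed by WB *Bcl3*-/- at 0.19 and HU *Bcl3*-/- at 0.24, and the widest was WB WT, at 0.34. Over all probe sets tested WB *Nfkb1*-/- muscle was the narrowest group as well, with a median SD of 0.10. That median was 0.18 in WB *Bcl3*-/-, 0.11 in HU *Bcl3*-/- and 0.14 in WB WT muscle. *Dbp* had an SD of 0.16 in WB and of 1.68 in HU *Bcl3*-/- muscle.

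**Figure D4:**
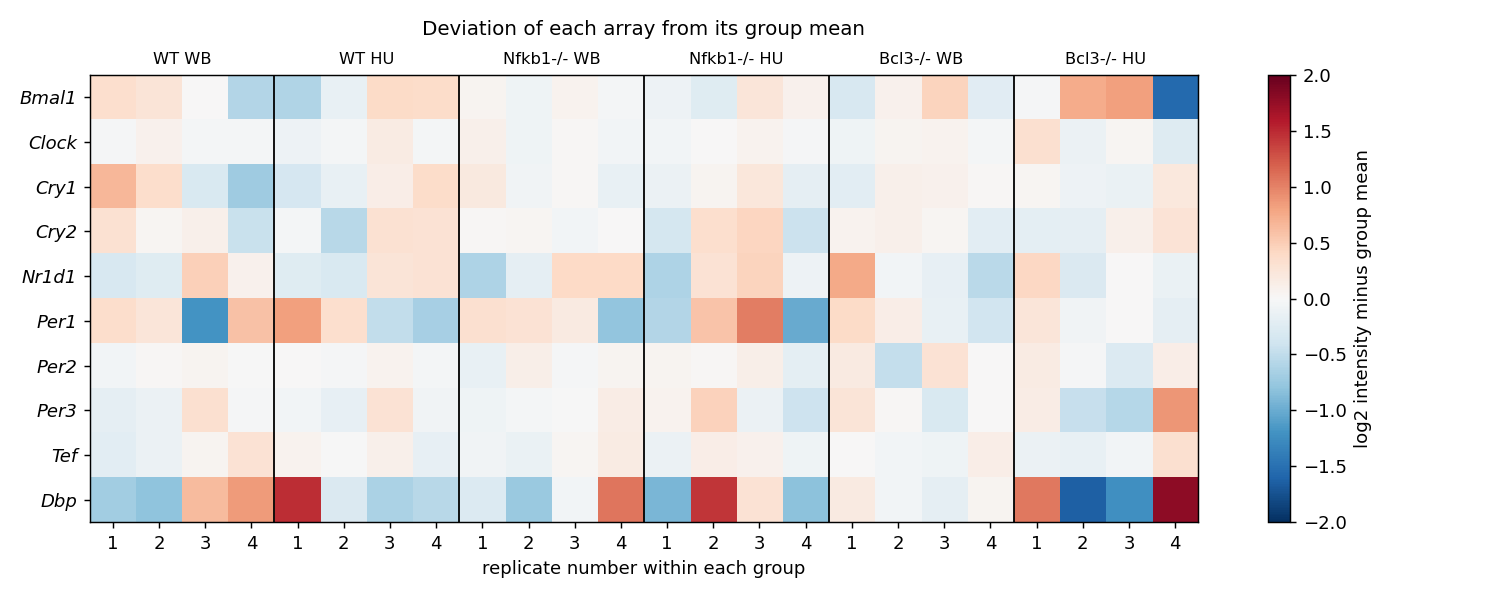
Log2 intensity minus the group mean for each clock gene (rows) on each of the 24 arrays (columns, replicates 1 to 4 within 6 groups), red above and blue below the mean. The rows of *Dbp*, *Per1* and *Bmal1* carry the strongest colours, and in unloaded *Bcl3*-/- replicate 4 *Dbp* is far above and *Bmal1* far below its mean.

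Within groups some clock genes moved together or apart. For each of the 45 pairs of members, deviations from the group mean were correlated over the 24 arrays and tested by permutation of arrays within groups (100000 draws, two-sided, adjusted over the 45 pairs by Benjamini-Hochberg). A total of 7 pairs passed unadjusted at 0.05 by Pearson's r, and 2 passed the adjustment. *Bmal1* and *Dbp* were opposed, with r = -0.76 (p = 0.00045, adjusted p = 0.0101) and Spearman's rho = -0.66 (p = 0.00309, adjusted p = 0.0695) by permutation. The r was -0.68 without the 2 arrays farthest in *Bmal1*, -0.66 on the 16 WT and *Nfkb1*-/- arrays and -0.89 on the 8 *Bcl3*-/- arrays. *Dbp* and *Tef* ran together, with r = 0.73 (p = 0.00039, adjusted p = 0.0101) and rho = 0.74 (p = 0.00093, adjusted p = 0.0419) by permutation. That r was 0.67 without the 2 arrays farthest in *Dbp*, 0.78 on WT and *Nfkb1*-/- arrays and 0.67 on *Bcl3*-/- arrays. Within either set of arrays alone no pair passed the adjustment. Arrays share their processing, and the pairs were looked at with results of these data known.

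Single mice show the opposition of *Bmal1* and *Dbp*. In 5 of the 6 groups the mouse with the highest *Dbp* had the lowest *Bmal1*. In unloaded *Bcl3*-/- replicate 4 *Dbp* was 2684 and *Bmal1* 36.3. Replicate 1 of that group was high in *Dbp* too (1616), and its *Bmal1* (105) lay between the others. In WB WT replicate 4 *Dbp* was 83.7 and *Bmal1* 43.7, and in unloaded WT replicate 1 they were 128 and 59.5. Unloaded *Nfkb1*-/- replicate 2 had 114 and 62.9, and WB *Bcl3*-/- replicate 1 had 297 and 163. The exception was WB *Nfkb1*-/- muscle, where *Bmal1* hardly varied. In WB *Bcl3*-/- muscle, which is among the 5, *Dbp* hardly varied either, at 230 to 297. The values of single mice are the same from which the r was computed and add no test to it.

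**Figure D5:**
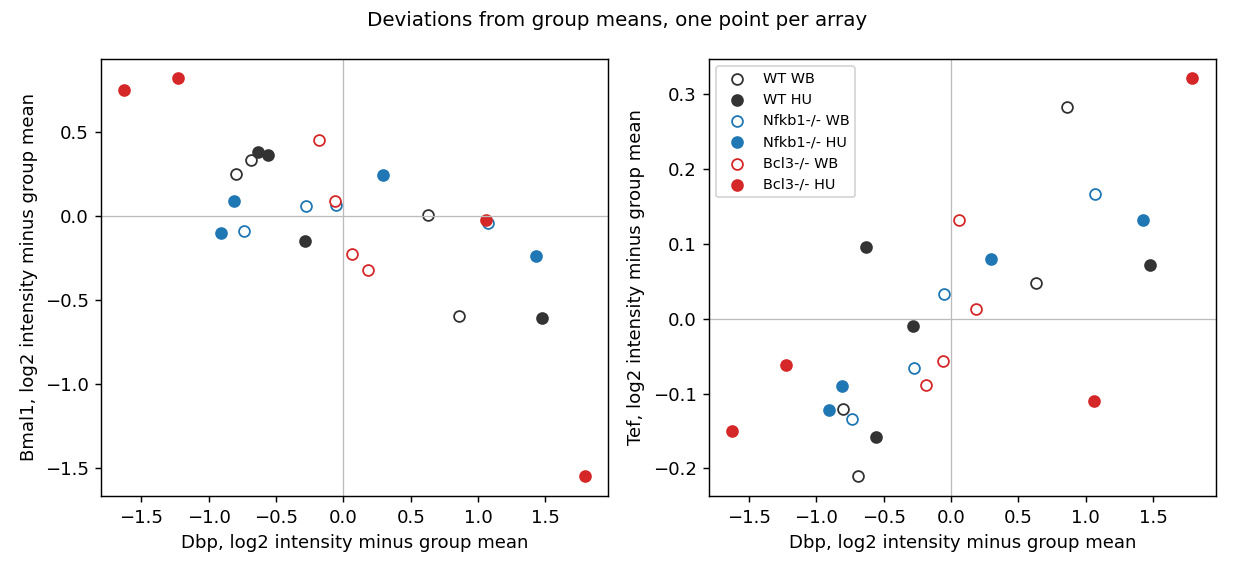
Deviation of each array from its group mean (log2 intensity), *Bmal1* against *Dbp* on the left and *Tef* against *Dbp* on the right, 1 point for each of the 24 arrays, coloured by group. *Bmal1* falls as *Dbp* rises (r = -0.76) and *Tef* rises with *Dbp* (r = 0.73), and unloaded *Bcl3*-/- mice span the whole range of *Dbp*.

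Other pairs depended on the set of arrays. *Per3* and *Bmal1* had r = -0.74 (permutation adjusted p = 0.0712), but -0.12 on WT and *Nfkb1*-/- arrays, where *Per3* was dim, and -0.98 on *Bcl3*-/- arrays. *Per3* and *Dbp* had r = 0.71 (permutation adjusted p = 0.0712), *Bmal1* and *Tef* -0.69 and *Cry1* and *Cry2* 0.61 (permutation adjusted p = 0.0599 for both). *Bmal1* and *Cry1* had r = 0.26 (permutation adjusted p = 0.564) over the 24 arrays, with 0.82 on WT and *Nfkb1*-/- arrays and -0.54 on *Bcl3*-/- arrays. *Bmal1* and *Nr1d1*, the gene of its repressor, had r = 0.02 (permutation adjusted p = 0.951). The rho of these 6 pairs was -0.58, 0.64, -0.55, 0.62, 0.44 and 0.01 in the order given, with permutation adjusted p = 0.104 for the first 4, 0.221 for *Bmal1* and *Cry1* and 0.98 for *Bmal1* and *Nr1d1*. Without the 2 arrays farthest in the gene named first, r was -0.43, 0.59, -0.59, 0.50, 0.63 and -0.06.

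All 17648 other probe sets with a single gene were ranked by their likeness to *Dbp* over the 24 arrays. The highest was the second *Dbp* probe set (r = 0.96), followed by both probe sets of *Nr1d2* (0.86 and 0.81), the REV-ERBβ gene, *Bhlhe40* (0.81), which encodes the repressor DEC1, and *Stard3* (0.79), a cholesterol transporter of endosomes. The lowest were *Pnpla3* (-0.86), a lipase of lipid droplets, *Slc25a36* (-0.81), a mitochondrial carrier, *Ppp1r3c* (-0.80), a glycogen targeting subunit of protein phosphatase 1, *Nfil3* (-0.79), a D-box repressor, and *Bmal1* (-0.76). Those most like *Bmal1* were *Ppp1r3c* (0.83), *Lcn2* (0.81), a secreted lipocalin, *Cast* (0.80), the calpain inhibitor calpastatin, *Ank3* (0.80), which encodes ankyrin-G, and *Rgs2* (0.79), a regulator of G protein signalling. The lowest were *Irgm2* (-0.81), an interferon-induced GTPase, *Dbp* (-0.80 for its second probe set), *Cd28* (-0.80), a T cell receptor of costimulation, *Jarid2* (-0.77), a part of Polycomb complex PRC2, and *Tmx2* (-0.76), a thioredoxin-like membrane protein. The likeness of *Ppp1r3c* to *Bmal1* was 0.26 on WT and *Nfkb1*-/- arrays and 0.97 on *Bcl3*-/- arrays. These values describe arrays of 2 scales and carry no test.

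The other factors of the clock were listed as 26 genes, of which 20 were tested. Of these 20, 5 (*Rorb*, *Arntl2*, *Hlf*, *Bhlhe41* and *Timeless*) were above 20 on fewer than 4 WT or *Nfkb1*-/- arrays. In WT muscle none of the 20 was called (3.97% of all probe sets). The calls in *Nfkb1*-/- muscle were 4, all higher, where 11.4% of all probe sets were called and 4.79% higher. The calls in *Bcl3*-/- muscle were 7 higher and 1 lower, where 10.4% of all were called, 7.59% higher and 2.81% lower. The median change of the list was 0.02, 0.09 and 0.22 in WT, *Nfkb1*-/- and *Bcl3*-/- muscle, beside -0.01, -0.00 and 0.01 over all genes tested.

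*Rora* encodes the receptor that activates *Bmal1* through the same core that REV-ERBα blocks. In WT muscle *Rora* read 175, 185, 186 and 180.4 in WB and 189.6, 164, 214 and 242 in HU. *Rora* read 150.2, 149.6, 188 and 144 in WB and 211, 309, 272 and 203 in HU *Nfkb1*-/- muscle. *Rora* read 846, 582, 1009 and 842 in WB and 2041, 1684, 1821 and 1458 in HU *Bcl3*-/- muscle. HU and WB arrays did not overlap in either knockout and overlapped in WT muscle. *Rora* changed by 0.14 (SE 0.15, adjusted p = 0.703) in WT muscle, and rose by 0.64 (SE 0.15, adjusted p = 0.00786) in *Nfkb1*-/- and by 1.11 (SE 0.15, adjusted p = 0.000135) in *Bcl3*-/- muscle. The WT change minus the *Bcl3*-/- change was -0.97 (SE 0.22, adjusted p = 0.0299), the one called difference between responses in this list and among the clock genes. It was lost without any of 8 single arrays, with adjusted p up to 0.0784, namely WT WB replicates 1 to 3, WT HU replicates 1 and 2, *Bcl3*-/- WB replicate 2 and *Bcl3*-/- HU replicates 1 and 3, and without *Bcl3*-/- WB replicates 2 and 4 together (-0.77, adjusted p = 0.129).

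*Bhlhe40* rose by 1.08 (SE 0.17, adjusted p = 0.000335) in *Nfkb1*-/- and by 1.19 (SE 0.17, adjusted p = 0.000173) in *Bcl3*-/- muscle, and was 0.41 (SE 0.17, adjusted p = 0.19) in WT muscle. Its intensities in *Bcl3*-/- muscle were 675, 625, 555 and 563 in WB and 1720.2, 1152, 1136 and 1601 in HU. *Csnk1e*, a kinase that marks PER proteins for breakdown, rose by 0.51 (SE 0.11, adjusted p = 0.00423) in *Nfkb1*-/- and by 0.50 (SE 0.11, adjusted p = 0.00748) in *Bcl3*-/- muscle. *Rora*, *Bhlhe40* and *Csnk1e* held in both knockouts without any single array, while *Csnk1e* in *Bcl3*-/- muscle was lost without WB replicates 2 and 4 together (0.39, adjusted p = 0.11). *Sirt1*, a deacetylase that acts on BMAL1 and PER2, was 0.58 (SE 0.19, adjusted p = 0.0481) in *Nfkb1*-/- muscle, a call kept without 6 of the 24 single arrays and lost without each of the rest (adjusted p up to 0.207), and 0.65 (SE 0.19, adjusted p = 0.031) in *Bcl3*-/- muscle, kept without 17 and lost without any *Bcl3*-/- array but WB replicate 2 (adjusted p up to 0.0818).

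*Nfil3* encodes E4BP4, which competes with DBP and TEF at D-boxes. It fell by 1.40 (SE 0.36, adjusted p = 0.0149) in *Bcl3*-/- muscle. Its intensities there were 925, 1211, 1369 and 887 in WB and 252, 679, 729 and 227 in HU, with no overlap, and HU replicates 1 and 4, high in *Dbp*, were the lowest. The *Nfil3* call was lost without HU replicate 1 (-1.16, adjusted p = 0.0696), without HU replicate 4 (-1.11, adjusted p = 0.0586) and without WB replicates 2 and 4 together (-1.46, adjusted p = 0.0728). *Gsk3b*, a kinase of several clock proteins, rose by 0.93 (SE 0.18, adjusted p = 0.00246), *Sfpq*, a partner of PER complexes, by 0.80 (SE 0.20, adjusted p = 0.0118), and *Csnk1d*, the other PER kinase, by 0.42 (SE 0.12, adjusted p = 0.0237). All 3 were lost without WB replicates 2 and 4 together, at adjusted p = 0.065, 0.13 and 0.111. *Sfpq* was also lost without HU replicate 1 (adjusted p = 0.0602), and *Csnk1d* without WB replicates 1 or 2 or HU replicates 2 or 3 (adjusted p up to 0.0889). *Nr1d2*, the twin of *Nr1d1*, changed by -0.01, 0.22 and 0.35 in WT, *Nfkb1*-/- and *Bcl3*-/- muscle and passed in none.

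Of 15 genes listed as outputs of the clock in muscle, 14 were tested. In WT muscle 1 was called, lower (3.97% of all probe sets were called), in *Nfkb1*-/- muscle 1 higher and 1 lower (11.4% of all), and in *Bcl3*-/- muscle 1 higher and 2 lower (10.4% of all). *Lpl*, the lipoprotein lipase, fell by 0.62 (SE 0.11, adjusted p = 0.00304) in WT and by 0.63 (SE 0.11, adjusted p = 0.00143) in *Bcl3*-/- muscle. In *Nfkb1*-/- muscle the *Lpl* change was -0.22 (limma, adjusted p = 0.249). *Wee1*, the cell cycle kinase whose E-boxes are a classic clock target, fell by 0.65 (SE 0.16, adjusted p = 0.0118) in *Bcl3*-/- muscle, a call lost without WB replicates 2 and 4 together (adjusted p = 0.0554). *Wee1* was also lower on average in WT (-0.52, limma, adjusted p = 0.0674) and in *Nfkb1*-/- muscle (-0.32, adjusted p = 0.221). *Cdkn1a*, the p21 gene that REV-ERBα represses, rose by 1.52 (SE 0.46, adjusted p = 0.0321) in *Nfkb1*-/- muscle, and *Ppargc1b*, a coactivator of mitochondrial genes, fell by 0.57 (SE 0.15, adjusted p = 0.013) there. In WT and *Bcl3*-/- muscle *Cdkn1a* changed by 0.94 and -0.08 and *Ppargc1b* by -0.22 and -0.03, none of which passed. The *Cdkn1a* call was lost without WB replicates 1 or 4 or HU replicates 3 or 4 (adjusted p up to 0.142), and that of *Ppargc1b* without HU replicate 3 (adjusted p = 0.0516). *Tspan4* was 0.52 (SE 0.16, adjusted p = 0.0432) in *Bcl3*-/- muscle, a call kept without 17 of the 24 single arrays and lost without *Nfkb1*-/- WB replicate 1, any WB *Bcl3*-/- array or HU replicates 1 or 4 (adjusted p up to 0.18), or without WB replicates 2 and 4 together (adjusted p = 0.202). *Tspan4* was 0.39 in WT and 0.38 in *Nfkb1*-/- muscle and did not pass there. For no gene of this list was the difference between the WT response and either knockout response called. The median change of the 14 genes was -0.08, 0.03 and -0.05, beside -0.01, -0.00 and 0.01 over all genes tested.

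Markers of other cell types moved with unloading in a few cases. Of all probe sets 2.31%, 4.79% and 7.59% were called higher with unloading in WT, *Nfkb1*-/- and *Bcl3*-/- muscle. Those called lower were 1.66%, 6.59% and 2.81% in the same order. *Tnmd*, a tendon marker, fell by 0.75, 1.27 and 0.86 in WT, *Nfkb1*-/- and *Bcl3*-/- muscle, 1 of 4 tendon markers in each, and the summed intensity of the 4 was 1633 to 2106 in WB and 1245 to 1870 in HU WT muscle, 1536 to 1632 and 957 to 1364 in *Nfkb1*-/- and 9930.4 to 11893 and 8140 to 10946 in *Bcl3*-/- muscle. *Mbp*, the single Schwann cell marker measured, rose by 0.84 in *Nfkb1*-/- and 0.96 in *Bcl3*-/- muscle, with 132 to 190 in WB and 237 to 357 in HU *Nfkb1*-/- muscle, and 482 to 1058 and 804 to 1899 in *Bcl3*-/- muscle. *Adipoq*, 1 of 2 adipocyte markers measured, rose by 0.75 in *Nfkb1*-/- muscle, where the 2 summed to 749 to 1038 in WB and 965 to 1263 in HU. Of the 6 macrophage and 4 endothelial markers none passed in any genotype. The macrophage marker *Cd68* was 0.94 (SE 0.29, adjusted p = 0.0708) in WT muscle. *Cd68* was above 20 on 2 and *Cd14* on 0 of the 16 WT and *Nfkb1*-/- arrays. Between unloaded *Nfkb1*-/- and WT muscle, *Alas2*, the 1 erythroid marker tested, was higher by 1.495 (adjusted p = 0.0181) and *Adipoq* by 0.72 (adjusted p = 0.0257), and 3 of the 4 tendon markers were lower (-0.69 for *Tnmd*, -0.67 for *Thbs4* and -0.40 for *Scx*). In that comparison 2.74% of all probe sets were called higher and 4.58% lower. *Scx* was below 20 on all 16 arrays of these genotypes. The part of these cells in the changes of *Nr1d1*, *Tef* and *Per3* was not tested.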

How the data were processed

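Total RNA of gastrocnemius and plantaris muscles was hybridized to Affymetrix mouse arrays, 4 for each of 6 groups. The authors imported the scanner files into GenePattern, ran RMA with its quantile step, and the deposited table holds linear intensity values. The submitters' processing notes name GCOS and RMA. RMA gives no detection calls. Of 22626 probe sets, 20380 had 1 gene in the platform annotation, 691 several and 1555 none listed. A probe set was tested when above 20 on at least 4 of 24 arrays (19294, of which 9722 were so on at least 4 WT or *Nfkb1*-/- arrays). One mean per group was fitted to log2 intensity with limma 3.58.1 in R 4.3.3 (18 residual and 5.89 prior degrees of freedom). Correlations used Python 3.11.15 and scipy 1.17.1. Both were tested on simulated data. The number of arrays limits the precision.

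The members and lists were chosen with earlier results of these data known. Named are all members, every called gene of the other clock factors, up to 4 called genes of each further list with the largest change, and the 5 probe sets of highest and lowest r to *Bmal1* and to *Dbp*. Alternatives changed the filter (none, or that of the methods), the groups in the fit, the variance model, array weights, the normalization, a pseudocount of 16, the test (the methods' t-test on linear values), a replicate block, the probe set of a gene, and the arrays, each left out in turn. The methods' t-test was run on the probe sets of the main filter, not together with the filter of the methods. Quantile normalization within each scale and leaving out WB *Bcl3*-/- replicates 2 and 4 were added after seeing the data.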

Additional observations from a re-analysis of the deposited data

Results flagged for a closer look

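Of 60 sets of 4 arrays (10 clock genes in 6 groups), 3 held an array far from the other 3, and chance alone gives about 1 in 20. *Per1* was 11.62 in WB *Nfkb1*-/- replicate 4, where the other 3 arrays were 22.72 to 24.97. *Clock* was 71.22 in WB WT replicate 2, where the others were 65.29 to 66.14. *Dbp* was 127.9 in unloaded WT replicate 1, where the others were 29.6 to 37.74. The 3 arrays are of different groups and the 3 genes differ.

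The change of *Rora* with unloading differed between WT and *Bcl3*-/- muscle by -0.97 on the log2 scale (limma, adjusted p = 0.0299), the smaller change being that of WT muscle. Under settings other than leaving out 1 array this difference ran from -0.97 to -0.77, and it failed the threshold without *Bcl3*-/- WB replicates 2 and 4 (adjusted p = 0.129, where the others gave up to 0.0447). The *Bcl3*-/- arrays are on another scale than the WT arrays, and the part of scale in this difference was not tested.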

How the results depend on the processing

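Over 102 values and 3703 recomputed settings, 3397 kept their direction and their side of the threshold, 193 fell below it, 16 rose above it and 97 changed sign, 24 of them in settings other than leaving out 1 array. None of the values that changed sign had passed. The count of clock genes called in WT muscle was 0 and became 3 with array weights (*Per1*, *Cry2* and *Nr1d1*). In *Nfkb1*-/- muscle it was 2 and became 1 in a fit of only the groups compared, with a trend and robust variance and with 16 added (*Tef* each time), 1 by the methods' t-test with q-values (*Clock*) and 0 by that test with Benjamini-Hochberg. In *Bcl3*-/- muscle it was 2 and became 1 in a fit of only the groups compared and with the scales fitted apart (*Nr1d1*), 4 with 16 added (*Per3*, *Clock*, *Cry2* and *Nr1d1*), 0 by the methods' t-test with either adjustment and 0 without its WB replicates 2 and 4. Leaving out each array gave 0 to 1 in WT (1 without HU replicate 2), 0 to 3 in *Nfkb1*-/- (0 without WB replicates 1 or 2 or HU replicates 2 or 3, 1 without HU replicate 4, 3 without *Bcl3*-/- HU replicate 1) and 2 to 4 in *Bcl3*-/- muscle (4 without HU replicate 2). By the methods' t-test 2467 probe sets passed unadjusted at 0.05 in WT muscle and 0 adjusted. That test was run here on the 19294 probe sets of the main filter, not on those of the methods' own filter. Its counts are therefore not those of the study's procedure, by which the paper reported genes upregulated in WT muscle. Between unloaded *Nfkb1*-/- and WT muscle the count was 0, and 1 with array weights (*Per1*). The other counts between groups or responses stayed at 0. The wide-spread members were 7, and 6 under either alternative. Pairs past the adjustment were 2, and 0 within WT and *Nfkb1*-/- arrays and 0 within *Bcl3*-/- arrays, where fewer arrays enter. The cause of the other shifts was not tested.

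With quantile normalization again the values that changed sign were *Tef* -0.046 with unloading in WT muscle. Centred on medians the values that changed sign were *Dbp* 0.0049 with unloading in WT muscle. With 16 added the values that changed sign were *Dbp* 0.0030 with unloading in WT muscle, *Per1* 0.018 with unloading in *Nfkb1*-/- muscle, *Cry2* -0.057 between the WT and *Bcl3*-/- responses. By the methods' t-test the values that changed sign were *Dbp* 0.11, *Tef* -0.0079 with unloading in WT muscle, *Per1* 0.12 with unloading in *Nfkb1*-/- muscle. With quantile normalization within each scale the values that changed sign were *Tef* -0.051 with unloading in WT muscle. With array weights the values that changed sign were *Per1* 0.31 with unloading in *Nfkb1*-/- muscle, *Per2* -0.093 with unloading in *Bcl3*-/- muscle, *Cry2* -0.0067 between the WT and *Nfkb1*-/- responses, *Bmal1* -0.094, *Cry1* -0.089, *Cry2* -0.0038, *Dbp* 0.15 between WB *Nfkb1*-/- and WT muscle, *Per2* 0.00024, *Cry2* 0.0029, *Dbp* 0.57 between HU *Nfkb1*-/- and WT muscle. Without *Bcl3*-/- WB replicates 2 and 4 the values that changed sign were *Per2* -0.10, *Cry1* 0.041 with unloading in *Bcl3*-/- muscle. Leaving out each array in turn, the values that changed sign ran as follows on the log2 scale. With unloading in WT muscle they were *Per3* -0.030 to 0.17, *Dbp* -0.50 to 0.28, *Tef* -0.069 to 0.096. With unloading in *Nfkb1*-/- muscle they were *Per1* -0.38 to 0.30, *Per3* -0.11 to 0.18, *Dbp* -0.43 to 0.40. With unloading in *Bcl3*-/- muscle they were *Per1* -0.25 to 0.0096, *Per2* -0.028 to 0.23, *Cry1* -0.093 to 0.022. Between the WT and *Nfkb1*-/- responses they were *Per3* -0.11 to 0.18, *Cry2* -0.037 to 0.30, *Dbp* -0.54 to 0.43, *Nr1d1* -0.27 to 0.14. Between the WT and *Bcl3*-/- responses they were *Cry2* -0.017 to 0.32. Between WB *Nfkb1*-/- and WT muscle they were *Per1* -0.46 to 0.20, *Bmal1* -0.15 to 0.16, *Cry1* -0.15 to 0.31, *Cry2* -0.066 to 0.18, *Dbp* -0.52 to 0.12, *Tef* -0.16 to 0.0015. Between HU *Nfkb1*-/- and WT muscle they were *Per2* -0.062 to 0.044, *Cry2* -0.22 to 0.11, *Dbp* -0.59 to 0.37, *Nr1d1* -0.34 to 0.015.

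Over all probe sets, the counts of calls that moved by over 1.5 times were as follows. In WT muscle 766 became 253 with only the groups compared, 2234 with array weights and 0 by the methods' t-test with either adjustment. In *Nfkb1*-/- muscle 2196 became 3832 with array weights and 918 or 441 by the methods' t-test with q-values or Benjamini-Hochberg. In *Bcl3*-/- muscle 2007 became 1041 with only the groups compared or the scales apart, 4532 with 16 added, 256 or 98 by the methods' t-test and 807 without WB replicates 2 and 4. For the difference between WT and *Nfkb1*-/- responses 34 ran from 20 to 270, and for that between WT and *Bcl3*-/- responses 206 ran from 41 to 567. Between WB groups 174 became 555 with array weights and 83 with 16 added, and between HU groups 1413 became 528 with only the groups compared and 891 with 16 added.

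The replicate numbers did not pair the mice: over 12 same-numbered WB and HU pairs the correlation of deviations was -0.17 to 0.22, with 2 over 0.1. With the replicate block the counts were 0 in WT, 2 in *Nfkb1*-/- and 2 in *Bcl3*-/- muscle, as without it. Over all probe sets the block moved the count of calls by over 1.5 times for 1 comparison, the difference between WT and *Nfkb1*-/- responses, from 34 to 20.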

Other observations

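Genes known to rise with glucocorticoids, hormones that also reset peripheral clocks, were looked at beside the clock genes. All 11 listed genes were tested. In WT muscle none was called (3.97% of all probe sets were), in *Nfkb1*-/- muscle 4 were called higher (11.4% of all called, 4.79% higher), and in *Bcl3*-/- muscle 1 was called higher and 1 lower (10.4% of all called). In *Nfkb1*-/- muscle *Pik3r1*, a regulatory subunit of PI3 kinase, rose by 1.44 (SE 0.17, adjusted p = 3.21e-05) and *Fkbp5*, a co-chaperone of the glucocorticoid receptor, by 1.51 (SE 0.47, adjusted p = 0.0403). *Sesn1*, an inhibitor of mTORC1 signalling, rose by 1.03 (SE 0.19, adjusted p = 0.00128) and *Klf9*, a zinc finger transcription factor, by 0.72 (SE 0.15, adjusted p = 0.00284). Of the listed genes *Ddit4* (-1.74, SE 0.59, adjusted p = 0.0603) and *Sgk1* (-0.27, SE 0.16, adjusted p = 0.333) were lower on average there and did not pass. *Ddit4* was also lower on average in WT (-0.93, adjusted p = 0.451) and in *Bcl3*-/- muscle (-1.28, adjusted p = 0.173). *Fkbp5* was lost without any of 7 single *Nfkb1*-/- arrays, all but WB replicate 3, with adjusted p up to 0.17. In *Bcl3*-/- muscle *Pik3r1* rose by 0.84 (SE 0.17, adjusted p = 0.00342) and *Tsc22d3*, the GILZ gene, fell by 0.56 (SE 0.18, adjusted p = 0.0449), a call kept without 15 of the 24 single arrays. It was lost without any WB *Bcl3*-/- array, HU replicates 1 or 4, WT HU replicates 2 or 3 or *Nfkb1*-/- WB replicate 2 (adjusted p up to 0.151), and without WB *Bcl3*-/- replicates 2 and 4 together (adjusted p = 0.181). The median change of the list was 0.11 in WT, 0.85 in *Nfkb1*-/- and 0.03 in *Bcl3*-/- muscle, beside -0.01, -0.00 and 0.01 over all genes tested. No gene of the list passed the test of a difference between the WT response and either knockout response. In unloaded muscle 3 of the 11 were higher in *Nfkb1*-/- than in WT mice, where 7.32% of all probe sets were called and 2.74% higher, namely *Klf9* by 0.67 (SE 0.15, adjusted p = 0.00829), *Pik3r1* by 0.89 (SE 0.17, adjusted p = 0.00251) and *Sesn1* by 0.72 (SE 0.19, adjusted p = 0.0234). The *Sesn1* difference was lost without WT HU replicate 1 or *Nfkb1*-/- HU replicates 2 or 3 (adjusted p up to 0.0946).

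*Timeless*, whose product joins replication forks and binds cryptochromes, was higher in unloaded *Nfkb1*-/- than in unloaded WT muscle by 0.57 (SE 0.15, adjusted p = 0.0227), on arrays that read 11.3, 16.0, 9.45 and 10.8 in WT and 17.4, 20.4, 14.1 and 18.1 in *Nfkb1*-/- mice. The call was lost without WT HU replicates 1, 3 or 4 or *Nfkb1*-/- HU replicate 2 (adjusted p up to 0.078). In WB muscle the difference was 0.59 (SE 0.15, adjusted p = 0.0705), with 9.35, 10.6, 11.6 and 10.2 in WT and 14.7, 13.9, 15.1 and 19.7 in *Nfkb1*-/- mice and no overlap (6.64% of all probe sets did not overlap). *Timeless* was above 20 on 1 of the 16 WT and *Nfkb1*-/- arrays and passed the filter through the *Bcl3*-/- arrays, so its levels in both comparisons lay near or below the limit of the filter. *Lpl* was higher in unloaded *Nfkb1*-/- than in unloaded WT muscle by 0.45 (SE 0.11, adjusted p = 0.018), a call lost without WT HU replicate 4 or *Nfkb1*-/- HU replicate 2 (adjusted p = 0.072 for both). *Adipoq*, an adipocyte marker, was higher by 0.72 (adjusted p = 0.0257) in the same comparison, with the 2 adipocyte markers measured summing to 815 to 953 in WT and 965 to 1263 in *Nfkb1*-/- mice. *Alas2*, an erythroid marker, was higher by 1.495 (adjusted p = 0.0181), and 3 of 4 tendon markers were lower (4.58% of all probe sets were called lower). Their part in the differences of *Lpl* and of the glucocorticoid genes was not tested.

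Of 5 markers of satellite cells and regeneration, *Chrna1*, a subunit of the acetylcholine receptor, rose by 1.26 in WT and 0.87 in *Nfkb1*-/- muscle, and *Myf5*, a myogenic factor, by 0.53 in *Bcl3*-/- muscle. Of all probe sets 2.31%, 4.79% and 7.59% were called higher in these genotypes, in the order given. *Myf5* was below 20 on all 16 WT and *Nfkb1*-/- arrays. *Alas2* passed with unloading in no genotype.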
